A study of Hordeum vulgare with 12 samples.

Results

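The sequences described here are 101 small RNAs (sRNAs) of 21 to 25 nt from barley shoots that had no perfect match in miRBase, the public catalogue of microRNAs (miRNAs). They were chosen by a fixed rule, every row of 21 to 25 nt in the deposited table of shoot sRNAs without a miRBase match. That table holds 199 sequences, and the 4 tables of the series together hold 10237 rows with 8271 distinct sequences. A sequence entered the table only because its level had differed between low-Pi and control shoots in these same 6 libraries. The members were therefore selected on the comparison described below, and their direction and size of change are given as a description, with no test. None of the 101 sequences occurred in the miRBase table of either organ, so they carried no name, and each is called here by its length and its first 6 letters. The letter T stands for the U of the RNA throughout.

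Barley (Hordeum vulgare) plants of line Rolap were grown for 23 days in a soil with 8 mg P per kg. Low-Pi plants received no further phosphate (Pi), and control plants grew in the same soil supplied with 60 mg P per kg. Shoot and root sRNAs were sequenced from 3 low-Pi pots (replicates 4, 5 and 6) and 3 control pots (replicates 16, 17 and 18), a replicate being a pot of 3 plants. Levels are given as reads per 1000000 reads kept in a library (RPM), and shoot libraries held between 10565625 and 14644436 reads. A whole shoot holds many cell types, so fewer cells of a type and less RNA per cell cannot be told apart in these values.

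Plant cells cut double-stranded RNA into sRNAs with DICER-LIKE enzymes. Products of 21 or 22 nt include most miRNAs and trans-acting siRNAs, which guide the cleavage of messenger RNA, whereas 24-nt siRNAs arise largely from repeats and transposons and direct DNA methylation. ARGONAUTE proteins load these sRNAs partly by their first base: AGO1 favours U and AGO4 favours A. Pieces of tRNA and rRNA occur in the same size range without being DICER-LIKE products. In phosphate-starved plants, miR399 represses PHO2, a ubiquitin-conjugating enzyme that limits Pi uptake and transport to the shoot, and miR827 represses SPX-domain proteins.

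Sequences of 2 sets carry the extremes of the data and are shown first. The 10 with the highest ratio of low-Pi to control level are written 5′ to 3′ in descending order, with the first base in capitals.
24-nt ATAAAT: Ataaatgtccgcaacgttcgtctg
21-nt TGCCAA: Tgccaaaggagaactgccctg
24-nt TGGTTA: Tggttagaacctctaaggggcccc
24-nt AAGATT: Aagattggttggttggttgggtct
24-nt ACCAAC: Accaaccgtcaagatctgaaaggc
24-nt ATTTGT: Atttgtagacccaaccaaccaacc
24-nt CTGAAT: Ctgaatgaatggtctcattggatc
24-nt AGATCG: Agatcgatttttgcgttggcgacg
21-nt GGGCTC: Gggctcctctttattggcagg
22-nt TCTAGC: Tctagccgagccattacagaac
The 7 with the lowest ratio follow, from the lowest upward, written in the same way, and every one of them was 24 nt long.
24-nt GGGGGA: Gggggatctaccgtcgtcgtgatg
24-nt AAATCG: Aaatcggaccgttgttaaacacat
24-nt GTGGGG: Gtggggatcgtacgaggtcgaacc
24-nt GACCGG: Gaccggctgaatctttgacttggc
24-nt ACCGAC: Accgaccggacatgatagcaaggc
24-nt ACTCGA: Actcgaaggatgtgtctgcatgct
24-nt GGGATC: Gggatctaccgtcgtcgtgatggt

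Of the 101 sequences, 73 were higher and 28 were lower in low-Pi than in control shoots. In all 101 the low-Pi and control libraries did not overlap, a separation that the selection favours and from which nothing is read. As a background, 15.2% of 289 shoot sequences of the same lengths from the miRBase table, which was not selected on this contrast, lay wholly higher under low Pi and 12.1% lay wholly lower. These 289 were the part of 2310 rows with at least 10 reads in at least 3 of the 6 libraries. The log2 ratio of mean RPM (low-Pi over control) ran from -4.62 to 6.76 with a median of 2.78 over all members. Among the 73 higher sequences it ran from 0.84 to 6.76 with a median of 3.05. Among the 28 lower ones it ran from -4.62 to -0.98 with a median of -1.37. The median over the 289 background sequences was 0.09. All 101 members had at least 10 reads in at least 3 of the 6 libraries.

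The increases were large and mostly on rare sequences, and the decreases were mostly modest and on more abundant ones. The median level over the 6 libraries was 2.97 RPM for the higher sequences and 19.8 RPM for the lower ones. Of the 73 higher sequences, 49 had a mean below 5 RPM and 64 had a log2 ratio above 2. Of the 28 lower ones, 6 had a mean below 5 RPM and 7 had a log2 ratio below -2. The table holds only sequences that passed a threshold, and how far that selection shapes this pattern was not tested.

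**Figure D1:**
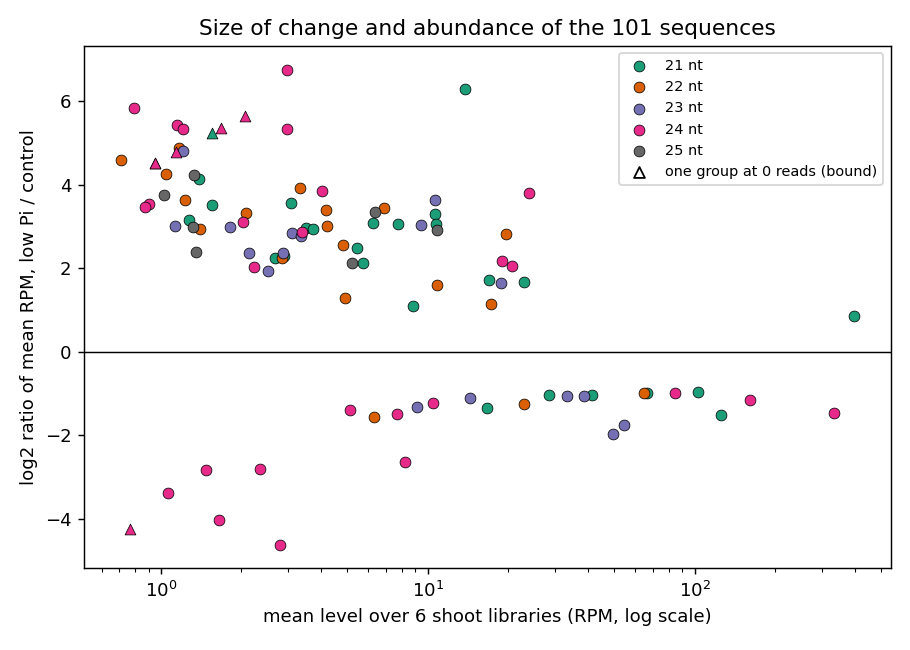
Log2 ratio of mean RPM (low-Pi over control, vertical axis) against the mean level over 6 shoot libraries (RPM, log scale) for each of the 101 sequences, coloured by length. Triangles are sequences with 0 reads in one group, drawn at their bound. The 7 lowest points are 24-nt sequences, and the point farthest right is the 21-nt CACGAC sequence at a log2 ratio of 0.84.

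Length divided the 2 directions unevenly. The higher sequences counted 20 of 21 nt, 16 of 22 nt, 11 of 23 nt, 19 of 24 nt and 7 of 25 nt. The lower ones counted 6, 3, 6, 13 and 0 at the same lengths, so that 24-nt sequences were 46.4% of the lower set and 26.03% of the higher set. The 24-nt class also held the most extreme values of both directions. Its 19 higher sequences had a median log2 ratio of 4.53, against 3.01 for the 20 of 21 nt and 3.16 for the 16 of 22 nt. Of these 19, however, 5 had 0 control reads, so that their ratios were set by a floor of 3 reads. The median of 4.53 is itself such a value. The median control level was 0.144 RPM for the 19 and 1.15 RPM for the 20 of 21 nt. How far such low counts shape the difference was not tested. The 13 lower 24-nt sequences had a median of -2.65, against -1.04 for the 6 of 21 nt, and no lower sequence of another length had a log2 ratio below -2. Just outside the length limit, the table held 28 sequences of 20 nt, of which 25 were higher and 3 lower (median log2 ratio 2.55). Just inside it, 26 sequences had 21 nt (median 2.40).

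The first base differed with direction. A first T was found in 28 of the 73 higher sequences (38.4%) and in 0 of the 28 lower ones. Lower sequences began with A in 14 cases, with G in 11 and with C in 3. Of the 19 higher 24-nt sequences, 12 began with A, 5 with T, 2 with C and 0 with G. Among the 13 lower 24-nt sequences, 8 began with A and 5 with G. Of the 20 higher 21-nt sequences, 8 began with T. A first T was present in 44.3% of the 289 miRBase-table sequences of 21 to 25 nt, in 28.0% of the 93 higher shoot sequences of 18 to 20 nt and in 17.6% of the 960 higher root sequences of 21 to 25 nt. Among the lower sequences of these other sets it was present in 0 of 5 in shoot and in 12.2% of 139 in root. These are shares of sequences. By reads, a first T held 18.9% of the higher members and 88.8% of the 289 miRBase-table sequences. A first C held 53.5% of the reads of the higher members.

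**Figure D2:**
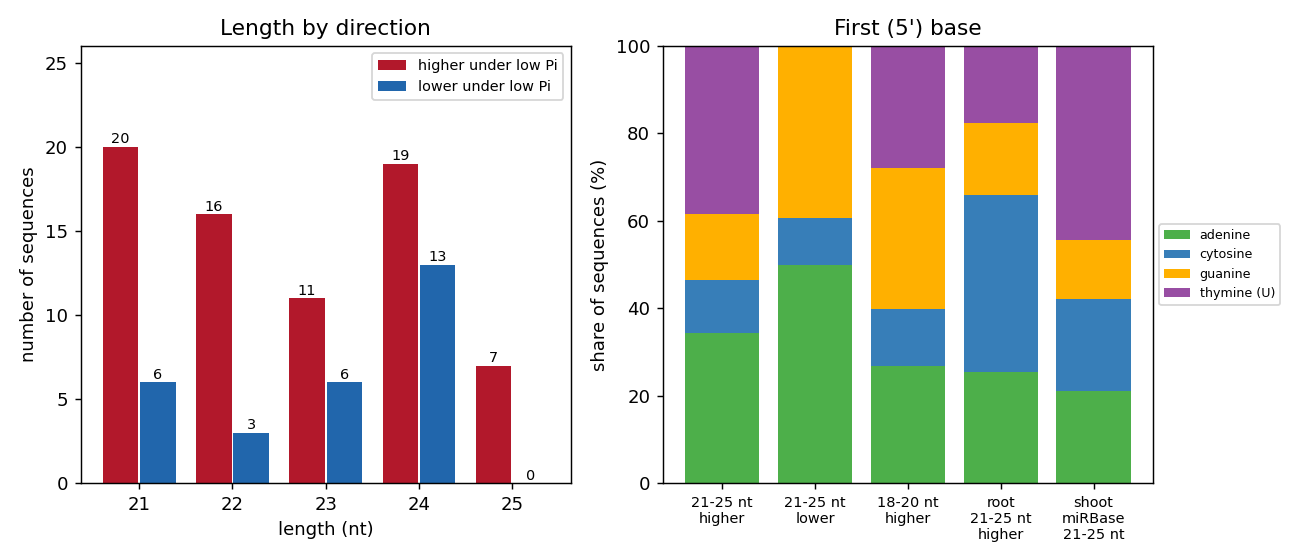
Left, number of sequences at each length (nt) that were higher or lower under low Pi in shoots, from 20 and 6 at 21 nt to 7 and 0 at 25 nt. Right, share of sequences (%) with each first base in the higher and lower sets and in 3 other sets of the series, where the lower set holds no first T (U).

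The last base and base composition of the members also differed with direction. Higher sequences ended in A in 34 of 73 cases (46.6%), and lower ones ended in A in 1 of 28 and in C in 15 of 28. A final A was more frequent in the shorter shoot sequences of the same table, at 63.4% of the 93 higher ones of 18 to 20 nt. In root sequences of 21 to 25 nt it hardly differed with direction, at 9.27% of higher and 9.35% of lower ones. The median G+C content was 45.8% for higher and 57.1% for lower sequences, and 52.4% for the miRBase-table sequences. The order was the same in shoot sequences of 18 to 20 nt, at 50% for higher and 55% for the 5 lower ones. It was the reverse in root sequences of 21 to 25 nt, at 63.1% for higher and 56% for lower ones. In these bulk counts, overlapping members share bases, so such shares are not shares of independent loci.

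The 10 highest ratios belonged to sequences that were almost or wholly absent from control shoots, and 7 of the 10 were 24-nt sequences. The 24-nt ATAAAT sequence had 88, 68 and 64 reads in low-Pi replicates 4, 5 and 6 and 0, 2 and 0 reads in control replicates 16, 17 and 18. Its pooled ratio was 107, with an exact 95% interval from 29.2 to 888, and all of its control reads came from replicate 17. Such intervals cover counting error only. The 24-nt AGATCG sequence had 94, 67 and 57 low-Pi reads against 2, 0 and 3, giving 5.77 ± 0.562 RPM against 0.144 ± 0.141 RPM (SD, n = 3). Without control replicate 18 its log2 ratio was 6.28 in place of 5.33.

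Control reads of 1 to 3 in all were left for 7 of the higher sequences, whose ratios are known only loosely. The 24-nt TGGTTA sequence had 19, 26 and 13 low-Pi reads against 0, 1 and 0, a pooled ratio of 56.3 with an interval from 9.72 to 2263. Its log2 ratio of 5.84 dropped to 3.64 without control replicate 17, which held the single control read. The 24-nt ACCAAC sequence (38, 33 and 15 against 1, 1 and 0 reads) had a pooled ratio of 41.8, with an interval from 11.2 to 350.4. The 24-nt CTGAAT sequence (38, 26 and 25 against 0, 1 and 1 reads) had a pooled ratio of 43.2, with an interval from 11.6 to 362. This depth hardly limits the upper ends of these intervals. The 22-nt TCTAGC sequence (32, 26 and 26 against 2, 1 and 0 reads) had a pooled ratio of 27.2, with an interval from 8.99 to 135, and its log2 ratio was 5.79 without control replicate 16. The lowest of the 7 intervals was that of the 22-nt TTAATG sequence (17, 16 and 17 against 1, 0 and 1 reads), from 6.38 to 206 around a pooled ratio of 24.3.

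Not a single control read was found for 6 of the higher sequences. Their folds are bounds, taken against 3 reads over the 3 control libraries (0.0826 RPM). The largest bound was that of the 24-nt AAGATT sequence, with 4.98, 3.78 and 3.69 RPM in the low-Pi libraries, at least 50.2-fold higher. The 24-nt ATTTGT sequence had 3.89, 2.79 and 3.41 RPM and was at least 40.7-fold higher. On the log2 scale these bounds were 5.65 and 5.35. They were 4.99 and 4.68 without control replicate 16, and 5.06 and 4.75 without control replicate 17. The 24-nt TTACCT sequence was at least 27.6-fold higher. For the 24-nt TGTAAC sequence and for the 24-nt AGTACA sequence the bound was 23.1-fold. The 21-nt GGGCTC sequence, described with miR399 below, completed the set. Each of the 6 was present in all 3 low-Pi libraries, with at least 14 reads in every one.

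**Figure D3:**
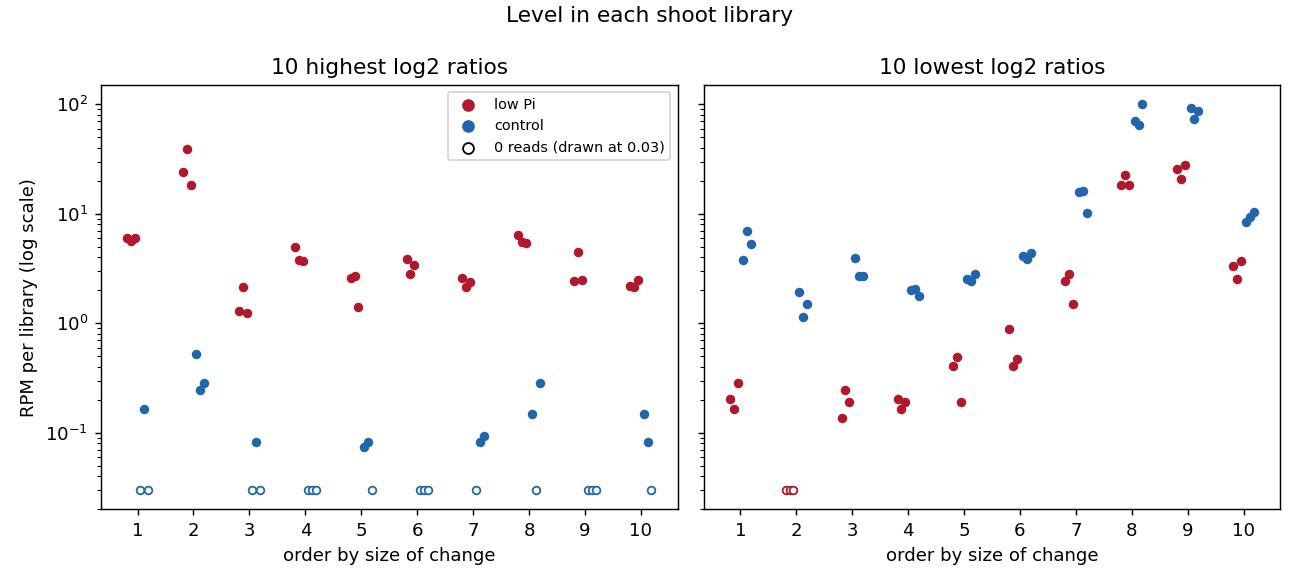
RPM in each shoot library (log scale) for the 10 highest (left) and 10 lowest (right) log2 ratios, in the order of size, with 3 low-Pi and 3 control points each and open circles for 0 reads. In both panels the low-Pi and control points are apart, and most control points on the left are at or near 0 reads.

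The AAGATT and ATTTGT sequences were the only opposite-strand pair among the 101 members. They are repeated here with the complementary bases in capitals.
24-nt AAGATT: aagattGGTTGGTTGGTTGGGTCT
24-nt ATTTGT: atttgtAGACCCAACCAACCAACC
The last 18 bases of each were the reverse complement of the last 18 of the other, so that both strands would leave 6 unpaired bases at the 5′ end and 0 at the 3′ end. DICER-LIKE enzymes are known to leave short 3′ overhangs. The paired stretch repeats the unit GGTT, which occurs 3 times in the first sequence, and other registers of pairing exist. In low-Pi shoots the strands had similar levels, 4.15 ± 0.723 and 3.36 ± 0.55 RPM (SD, n = 3), and both were highest in replicate 4.

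The 7 sequences with the lowest ratios were rare 24-nt sequences, with means between 0.764 and 8.19 RPM. The 24-nt GGGGGA sequence had 0.205, 0.164 and 0.284 RPM in low-Pi and 3.8, 6.94 and 5.36 RPM in control libraries, a log2 ratio of -4.62 (SE 0.34). The 24-nt GGGATC sequence shares 22 bases with it, its start lying 2 bases further in the 3′ direction. It had 2.46, 2.79 and 1.51 RPM against 15.9, 16.3 and 10.1 RPM, a log2 ratio of -2.65 (SE 0.32). This pair therefore moved the same way by unequal amounts. The 24-nt AAATCG sequence had 26, 14 and 16 reads in control libraries and 0 in all low-Pi libraries, so it was at least 19.04-fold lower. Its log2 bound was -4.25, and -3.53 without low-Pi replicate 4. The 24-nt GTGGGG sequence (0.191 ± 0.055 against 3.12 ± 0.717 RPM) and the 24-nt GACCGG sequence (0.186 ± 0.0204 against 1.95 ± 0.14 RPM) had log2 ratios of -4.03 (SE 0.31) and -3.39 (SE 0.11). The 24-nt ACCGAC and ACTCGA sequences had log2 ratios of -2.84 and -2.80. All 7 were read in every control library, where the lowest value of any of them was 1.14 RPM.

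The bulk of the reads belonged to other sequences. Summed over the 73 higher members, the level was 1230, 1337 and 971 RPM in low-Pi replicates 4, 5 and 6 and 374, 429 and 396 RPM in control replicates 16, 17 and 18, a ratio of 2.95. A single sequence, the 21-nt CACGAC, supplied 43.0% of that sum in low-Pi and 70.7% in control shoots. It had 528, 570 and 423 RPM in low-Pi and 266, 307 and 275 RPM in control libraries, and its log2 ratio of 0.84 (SE 0.14) was the smallest of the 73. Without it the sums were 672 ± 112 and 117 ± 8.15 RPM (SD, n = 3), a ratio of 5.75. Summed over the 28 lower members, the level was 758, 738 and 753 RPM in low-Pi and 1784, 1875 and 1859 RPM in control libraries, a ratio of 0.41. All 101 members together made up 0.193% ± 0.0183 of low-Pi and 0.224% ± 0.00744 of control shoot reads. The 98 shorter sequences of the same table, of 18 to 20 nt, made up 5.37% ± 1.1 and 1.04% ± 0.297. Their summed level was 53663 RPM in low-Pi and 10400 RPM in control shoots. Most of it came from a single sequence, with a mean of 29693 RPM over the 6 libraries. The median level of the 98 was 4.43 RPM, so these shares describe that sequence more than the set.

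Most of the abundant lower sequences are shown next, because several carry letters that are common to tRNAs. The annotation list of the study has the 24-nt AGGGAT, the 24-nt AGCGGA and the 23-nt CGGAAG sequences under tRNA, the 21-nt GGTGTC sequence under tRNA and protein-coding, and the 21-nt AAAAGG sequence under rRNA among other classes. A passage in the main text of the study, however, says that no shoot sequence was assigned to tRNA. The same text maps its most abundant shoot sRNA to an arginyl-tRNA locus, and its supplementary class counts include shoot sequences under tRNA. These classes are therefore given as listed and were not settled here. Capitals mark the motif GTTCGA, known from the T loop of tRNAs, or GGTAG, frequent near their D loop.
24-nt AGGGAT: agggatgtagcgcagcttGGTAGc
24-nt AGCGGA: agcggagtagagcagtttGGTAGc
23-nt CGGAAG: cggaagctgcggGTTCGAgcccc
21-nt GGTGTC: ggtgtcggggGTTCGAatccc
21-nt GGAGAG: ggagagatggctgagtggaca
21-nt AAAAGG: aaaaggattggctctgaggac
Either motif, searched on the sequenced strand, was found in 7 of the 28 lower and 1 of the 73 higher sequences. The 7 include the 24-nt AGGGAT and 23-nt GGGATG sequences, which share 23 bases, so they are not independent. The higher 22-nt AGCGGA sequence, contained in the 24-nt AGCGGA sequence, ends in GGTA and so was not counted. GTTCGA was found in 2 of the 101 members (1.98%) and in 0.563% of the 2310 shoot sequences of 21 to 25 nt in the miRBase table. GGTAG was found in 6 members (5.94%) and in 1.95% of those sequences. In root sequences of 21 to 25 nt, GGTAG was found in 11.5% of the 139 lower and 0.417% of the 960 higher ones. GTTCGA was found there in 0 lower and 2 higher ones. In shoot sequences of 18 to 20 nt, GGTAG was found in 2 and GTTCGA in 1 of the 5 lower ones, and both in 0 of the 93 higher ones. The higher exception was the 25-nt GGCTAT sequence, at 8.5 ± 1.07 against 1.95 ± 0.441 RPM, which that list also has under tRNA. A match of letters describes the sequence and does not establish its origin.

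The most abundant lower sequence was the 24-nt AGGGAT, with 195, 155 and 179 RPM in low-Pi and 434, 522 and 512 RPM in control libraries. Its log2 ratio was -1.47 (SE 0.13), and the 23-nt GGGATG sequence, which lacks only its first base, stood at -1.34 (SE 0.14). Next came the 24-nt AGCGGA sequence, with 106, 89.8 and 104 against 206, 227 and 234 RPM. The 21-nt GGAGAG sequence had 53.7, 79.9 and 61.2 against 217, 174 and 167 RPM, a log2 ratio of -1.52 (SE 0.21). The groups were apart for each of these sequences, which the selection favours. The 23-nt CGGAAG sequence stood at -1.77 (SE 0.16), and the 21-nt GGTGTC sequence at -0.99 (SE 0.16). The smallest decrease was that of the 21-nt AAAAGG sequence, at 69.6 ± 9.62 against 137 ± 8.12 RPM (log2 ratio -0.98, SE 0.13), closely followed by the 24-nt ACACGG (56.9 ± 1.34 against 112 ± 7.13 RPM) and the 22-nt AAGGGG (43.4 ± 3.23 against 85.8 ± 6.46 RPM). The 23-nt GTGCCG sequence, at 19.9 ± 2.49 against 78.6 ± 19.1 RPM, had the lowest ratio among lower sequences that were not 24 nt long (log2 ratio -1.98, SE 0.23). The rarer 22-nt AAGAAG sequence, at 3.19 ± 0.587 against 9.44 ± 0.968 RPM, stood at -1.56 (SE 0.18).

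After CACGAC, no higher sequence had a mean above 24 RPM over the 6 libraries. The 24-nt TAACAC sequence had 62.5, 50 and 21.6 RPM against 4.1, 2.94 and 2.63 RPM, so that its low-Pi libraries spread widely, with replicate 6 the lowest. The 21-nt GGTGTT sequence had 34.9 ± 7.52 against 10.9 ± 1.67 RPM and a log2 ratio of 1.68. The 24-nt AACCAA and 23-nt ACCAAG sequences, which differ by 1 base at the 5′ end, had 33.3 ± 6.23 against 8.07 ± 1.97 RPM and 28.7 ± 4.79 against 9.12 ± 1.77 RPM. The 22-nt GTTCGG sequence had 34.3 ± 7.13 against 4.85 ± 1.18 RPM, and the 24-nt ACTTGG sequence had 31 ± 12 against 6.83 ± 1.02 RPM. In all of these the lowest low-Pi library exceeded the highest control library by at least 2.13 times, a gap that the selection favours. The 22-nt ATACTG sequence, which the study assigned to snoRNA, varied little within groups, at 16.2 ± 1.23 against 5.39 ± 0.346 RPM.

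Between these extremes lay sequences with fewer reads that were mostly alone. The 23-nt GATAGG sequence had 22, 28 and 34 low-Pi reads and 1 read in each control library, a pooled ratio of 27.2 with an interval from 8.99 to 135. The 22-nt GTTTCC sequence had 5.87, 9.12 and 3.79 RPM against 0.373, 0.49 and 0.376 RPM (log2 ratio 3.92, SE 0.38). The 24-nt AGAGCA sequence had 9.36, 5.34 and 7.76 RPM against 0.149, 0.653 and 0.752 RPM (log2 ratio 3.85, SE 0.57). In these 3 sequences the low-Pi libraries differed among themselves without reaching the control ones, a separation that the selection favours. The 7 members of 25 nt, all of them higher, had log2 ratios between 2.12 and 4.22. Their sum was 48.2 ± 13.2 RPM in low-Pi and 6.63 ± 1.43 RPM in control shoots. The most abundant of them besides the 25-nt ACTTGG variant, the 25-nt TAGTTA sequence, had 13.1, 13.4 and 8.23 RPM against 1.42, 1.06 and 0.94 RPM.

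By length, the summed level of the higher members was 164 ± 37.8 against 21.4 ± 2.52 RPM at 24 nt (ratio 7.69), 96.6 ± 17.6 against 17.8 ± 2.59 RPM at 23 nt (5.43) and 142 ± 21.7 against 30.6 ± 1.47 RPM at 22 nt (4.65). At 21 nt, where CACGAC dominates, it was 728 ± 104 against 323 ± 24 RPM (2.25). The lower members of 24 nt summed to 350.2 ± 29.4 against 890.4 ± 63.1 RPM, and those of 21 nt to 234 ± 16.7 against 529 ± 20.5 RPM. Taking both directions together, the 24-nt members stood at 515 ± 40.6 RPM in low-Pi and 912 ± 65.6 RPM in control shoots, because the few abundant lower sequences outweigh the many rare higher ones in reads.

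Many members were variants of one another. When sequences sharing at least 15 identical bases on the same strand were joined, 42 of the 101 fell into 17 groups, and 59 stood alone. The groups comprised 10 pairs and 7 groups of 3 or 4. In 11 groups all members were higher, in 5 all were lower, and in 1 the members moved in opposite directions. Members shared the 5′ end in 4 groups and the 3′ end in 6, and differed at both ends in 7. Within the 16 groups that moved 1 way, the log2 ratios spanned between 0.00 and 1.98, with a median span of 0.48. Variants were frequent among higher members of 23 nt (8 of 11) and infrequent among higher members of 24 nt (3 of 19). Only variants that had themselves passed the selection could be counted. The median level was 2.87 RPM for these 23-nt and 2.03 RPM for these 24-nt members. How far selection and level shape this contrast was not tested.

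The exception was the pair of the 24-nt and 22-nt AGCGGA sequences, with the 2 bases that distinguish them in capitals.
24-nt AGCGGA: agcggagtagagcagtttggtaGC
22-nt AGCGGA: agcggagtagagcagtttggta
The 22-nt sequence had 25.3, 25.4 and 20.5 RPM in low-Pi and 11, 11.1 and 10.1 RPM in control libraries (log2 ratio 1.14, SE 0.11). The 24-nt sequence, with the same first base, had a log2 ratio of -1.15 (SE 0.09). Of the reads of the 2 sequences together, the 22-nt one made up 19.3%, 22.0% and 16.5% in low-Pi replicates 4, 5 and 6 and 5.07%, 4.66% and 4.16% in control replicates 16, 17 and 18. The 22-nt form was higher and the 24-nt form lower in every low-Pi library than in any control library. A larger share of the shorter form in low-Pi libraries follows from this and adds nothing independent. Both forms together stood at 124 RPM in low-Pi and 233 RPM in control shoots.

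**Figure D4:**
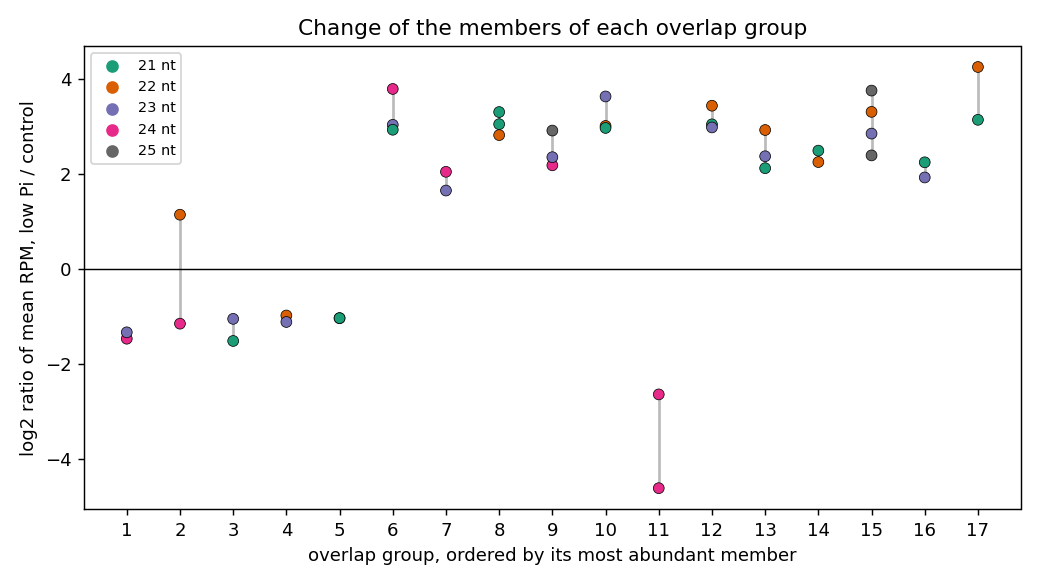
Log2 ratio (low-Pi over control) of every member of the 17 overlap groups, ordered by their most abundant member and coloured by length, with a grey line over the range of each group. Group 2 is the AGCGGA pair at 1.14 and -1.15, and group 11 is the GGGGGA and GGGATC pair at -4.62 and -2.65.

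Of the groups with 3 or more members, all 7 were higher under low Pi. The GTTCGG group held 3 members with log2 ratios between 2.82 and 3.31 and a summed level of 72.8 against 9.12 RPM. The TAACAC group (3 members, 2.93 to 3.79) had 68.1 against 6.13 RPM, and the ACTTGG group (3 members, 2.18 to 2.92) had 53.7 against 10.1 RPM. The TTTGGT group holds 3 sequences with a common 3′ end, shown with the additional 5′ bases in capitals.
23-nt TTTGGT: TTtggtggaggaactttaggaca
22-nt TTGGTG: Ttggtggaggaactttaggaca
21-nt TGGTGG: tggtggaggaactttaggaca
Their levels were 19.8 ± 7.8, 7.48 ± 2.01 and 6.23 ± 1.97 RPM in low-Pi and 1.59 ± 0.308, 0.926 ± 0.233 and 0.794 ± 0.166 RPM in control shoots, with log2 ratios of 3.64, 3.01 and 2.97. All 3 were lowest, among low-Pi libraries, in replicate 6. The AGAGAG group was the largest, with 4 members and log2 ratios between 2.39 and 3.76, and the CGTTAT group (3 members) ran from 2.12 to 2.93.

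Shorter sequences of the same table continued these series below 21 nt. Of its 98 sequences of 18 to 20 nt, 36 shared at least 15 bases with a member, and all 36 changed in the direction of that member. They touched 22 of the 101 members. The 22-nt TAGCAA sequence (8.25 ± 1.49 against 1.41 ± 0.0834 RPM) contained a 20-nt sequence at 302 ± 66.6 against 57.5 ± 8.37 RPM. The 21-nt AAATCG sequence (11.2 ± 1.58 against 1.32 ± 0.616 RPM) contained a 19-nt one at 93 ± 13.5 against 6.13 ± 1.95 RPM. These shorter forms were the more abundant ones.
22-nt TAGCAA: Tagcaagatattgggtattttg
20-nt GCAAGA: gcaagatattgggtattttg
21-nt AAATCG: Aaatcgtctttacatcggatg
19-nt ATCGTC: atcgtctttacatcggatg
The table was selected on the same libraries for all lengths, so the common direction adds nothing independent.

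A search allowing up to 3 mismatches and a shift of up to 3 bases placed 7 of the 101 members near a miRBase-table sequence, and 4 of these near a mature miRNA entry. The matched mature sequences are printed first, with bases 2 to 8, the seed, in capitals.
miR399b: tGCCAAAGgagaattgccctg
miR827: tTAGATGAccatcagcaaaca
The 5 members near miR399 and miR827 are printed next, with the bases that differ from the nearest entry or extend beyond it in capitals.
21-nt TGCCAA: tgccaaaggagaaCtgccctg
21-nt GGGCTC: gggctCctctttattggcAGG
21-nt TTAGAT: ttagatgaccatcagcaaacT
22-nt TTAGAT: ttagatgaccatcagcaaacTT
23-nt TTAGAT: ttagatgaccatcagcaaacTTT
Counted from the 5′ end of the reference, TGCCAA differed from mature miR399b by T14C, outside the seed. GGGCTC differed from a miR399a and miR399c precursor entry by T7C over 18 bases. The 3 TTAGAT sequences carried the first 20 bases of miR827 without a mismatch and ended in 1, 2 or 3 T, the first of them being A21T against the mature sequence. Whether those T were in the precursor or were added later was not tested, since no genome sequence was used. The study had itself placed TGCCAA 1 mismatch from miR399, as a potential miRNA with PHO2 as its predicted target. It had likewise placed the 3 TTAGAT sequences near miR827, with SPX-MFS1 as a predicted target. For the 21-nt form it also gave SPX-MFS2, by another prediction method.

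The miR399-like sequences had the largest increases among 21-nt members. TGCCAA had 24.2, 39 and 18.5 RPM in low-Pi and 0.522, 0.245 and 0.282 RPM in control libraries, a log2 ratio of 6.28 (SE 0.48). The miRBase form of miR399b itself had 80.9, 114 and 121 RPM against 4.62, 6.69 and 3.29 RPM, a log2 ratio of 4.44 (SE 0.34). Of the 2 sequences together, TGCCAA made up 23.1%, 25.5% and 13.2% in low-Pi and 10.1%, 3.53% and 7.89% in control libraries. The closest values, 13.2% in low-Pi replicate 6 and 10.1% in control replicate 16, were near one another, and the control shares rest on 3 to 7 reads of TGCCAA a library. GGGCTC had 36, 54 and 26 reads in low-Pi and 0 in all control libraries, at least 37.7-fold higher. Its log2 bound of 5.24 was 4.57 without control replicate 16 and 4.64 without control replicate 17. All 117 miR399 sequences of the miRBase table summed to 353 ± 59.5 against 19.3 ± 6.44 RPM, and the 2 members added 30.4 ± 11.7 against 0.35 ± 0.15 RPM.

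The miR827-like sequences were set beside mature miR827 and its 20-nt form. The 21-nt form had 14.3, 15.6 and 11.6 RPM in low-Pi against 1.79, 1.55 and 1.69 RPM in control libraries (log2 ratio 3.05, SE 0.14). The 22-nt form had 13.1, 14.3 and 10.4 against 0.895, 0.898 and 1.69 RPM (3.44, SE 0.35), and the 23-nt form had 2.73, 2.79 and 4.16 against 0.373, 0.571 and 0.282 RPM (2.98, SE 0.37). Mature miR827 had 211 ± 29.6 against 26.7 ± 1.58 RPM, a log2 ratio of 2.99 (SE 0.13). The 20-nt form that the 3 members extend had 21.9 ± 4.24 against 1.37 ± 0.29 RPM, a log2 ratio of 3.997 (SE 0.24), above those of all 3 members. The 3 members were 6.26% of all miR827 and miR827-like reads in low-Pi and 6.76% in control shoots, shares whose difference was not tested.

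**Figure D5:**
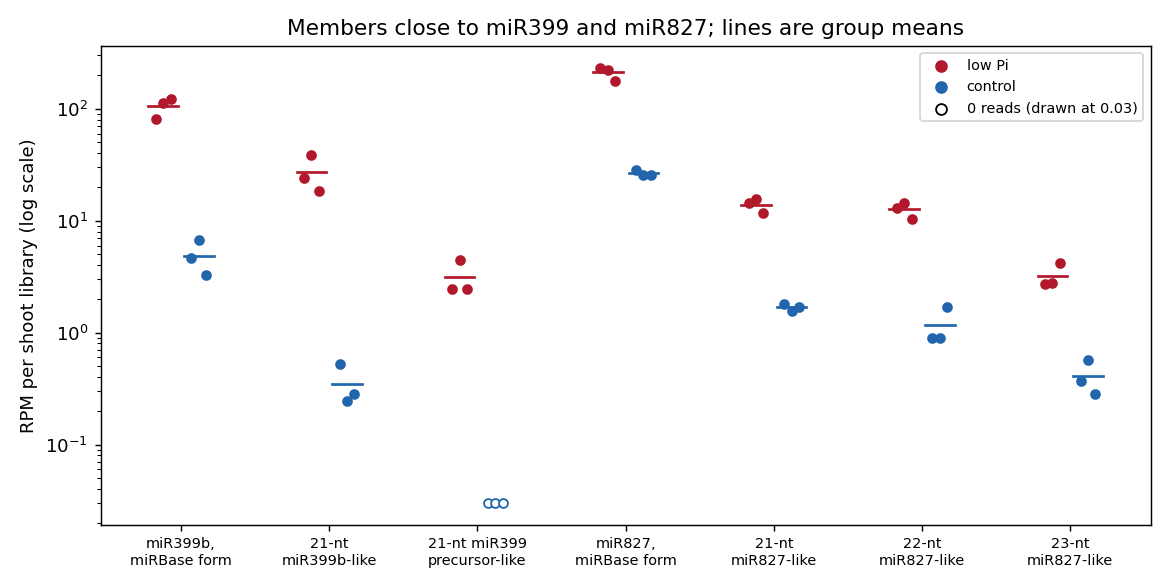
RPM in each shoot library (log scale) of the miR399b and miR827 miRBase forms and of the 5 members close to them, with short lines at the group means and open circles for 0 reads. Every low-Pi point lies above every control point of the same sequence, and the miR399 precursor-like sequence has no control reads.

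The 2 remaining matches were to precursor entries, as was that of GGGCTC, and all 3 were equally close. The 22-nt TAGCAA sequence matched a miR9774 precursor entry and the 24-nt ACACGG sequence a miR1117 precursor entry, each over 18 bases with 1 mismatch (A2G and A5G). The matched entries themselves had at most 1 read in any shoot library, so no level can be set beside those of the members. The same holds for the precursor entry matched by GGGCTC.

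Only 2 of the 101 members also appeared in the deposited root table of sRNAs without a miRBase match, and both were higher under low Pi there too. In roots, TGCCAA had 7.47, 9.31 and 4.71 RPM in low-Pi and 0.35, 0.989 and 0.134 RPM in control libraries, a log2 ratio of 3.87 (SE 0.80). Its share of the reads of TGCCAA and miR399b together was 61.6% ± 14.7 in low-Pi and 30.8% ± 15.9 in control roots, compared with 20.6% ± 6.52 and 7.19% ± 3.36 in shoots. The root control values rest on 1 to 8 reads a library. The other was the 24-nt ATTCTC sequence, attctccgcgtcggatacctgaga, with 3, 4.27 and 3.5 RPM against 0.895, 0.735 and 1.03 RPM in shoots (log2 ratio 2.02, SE 0.20). In roots it had 18, 15 and 24 low-Pi reads and 3, 0 and 1 control reads (log2 ratio 3.20, SE 0.87). The root table was selected in the same manner on root libraries, so the levels of the other 99 members in roots were not analysed here.

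Replicates differed more for the higher than for the lower sequences. The median coefficient of variation among low-Pi libraries was 17.8% for higher and 13.8% for lower members, and among control libraries 27.0% and 9.83%, leaving out the 7 members with a group at 0. The higher members also had fewer reads. Over all members, median levels were 5.69 RPM in low-Pi and 0.753 RPM in control shoots for the higher, and 11.5 and 28.1 RPM for the lower ones. Counting error is relatively larger at low levels, and its part in these coefficients was not tested. Low-Pi replicate 6 was the lowest of its group in 47 of the 73 higher sequences, and replicate 5 was the highest in 36. Without replicate 6 the summed ratio of the higher members was 3.21 in place of 2.95, and that of the lower members stayed at 0.41.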

How the data were processed

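sRNAs of 12 libraries (shoot and root, low-Pi and control, 3 pots each) had been size-selected, prepared with the TruSeq small RNA kit and sequenced on a HiSeq instrument. The authors trimmed the reads in CLC Genomics Workbench (version not given in the sources used here), kept 18 to 25 nt and counted identical reads. The deposited tables give a count and an RPM value per sequence and library. Shoot and root sequences without a perfect match in miRBase were deposited by the authors only where they passed a Bonferroni threshold. Deposited p-values, adjusted p-values, fold changes and weighted differences, group means, and 24 further columns that repeat the counts were not used.

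Library totals were recovered as count divided by RPM. Mean RPM of 3 pots, SD, log2 ratio and its SE (delta method) were computed in Python 3.11.15 (pandas 2.3.3, scipy 1.17.1). A group at 0 was set to 3 reads over its 3 libraries, and groups with 1 to 3 reads received an exact 95% interval. No significance test was made, because the sequences were selected on this contrast. Background sequences needed at least 10 reads in at least 3 of 6 libraries. Overlap groups (at least 15 shared bases, single linkage), opposite-strand pairs and near matches (overlap of at least 18 bases) were found by comparing letters, and the code was checked on simulated data. Values are named for the 10 highest and 10 lowest ratios, the 8 most abundant sequences per direction, near-miRBase, opposite-strand and root-shared members, and leaders of overlap and motif groups; a few others were named after their values were seen. The sequences, lists and rules were chosen with earlier results of these data known. Alternatives were TMM factors (edgeR 4.0.16), median-of-ratios size factors, the miRBase-table total, no scaling, group medians, the read minimum and each library left out. No genome was used, so no coordinates are given.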

Additional observations from a re-analysis of the deposited data

How the results depend on the processing

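The counts of 73 higher, 28 lower and 101 separated sequences did not change with the other scalings or group medians. Leaving out a library, or the read minimum that every member passes, could not change them. The summed ratio of the lower sequences, 0.408, became 0.458 with the total of the miRBase table as the scale and 0.42 without scaling. That miRBase scale moved the median log2 ratio from 2.78 to 2.96, relative to which all directions held. Leaving out 1 library gave summed ratios between 2.75 and 3.21 for the higher and between 0.402 and 0.412 for the lower sequences, and medians between 2.50 and 2.76. Of 70 named sequences, none changed direction. A change of over 1.5 times in the ratio occurred in 13 of 770 values, all for sequences with few or no reads in 1 group. With group medians, the log2 ratios of the 24-nt TGGTTA and 22-nt AACAAT sequences were 3.97 and 3.67 in place of 5.84 and 4.26. Without control replicate 17 that of 24-nt ATAAAT was 5.56 in place of 6.76. For 24-nt AAGATT, 24-nt ATTTGT and 21-nt GGGCTC, with 0 control reads, log2 bounds without a control library lay between 4.57 and 5.15 in place of 5.24 to 5.65, because the floor of 3 reads then stands over fewer libraries.

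No paired analysis was possible because no test was made and the low-Pi and control libraries share no replicate number. Depth limits the rare sequences: 3 reads correspond to between 0.205 and 0.284 RPM in a shoot library. Sequences that did not pass the authors' threshold, and the loci of the members, were not analysed here.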
